A study of Glycine max with 9 samples.

Results

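The noncoding RNA loci of the soybean root tip were taken as the gene identifiers of the transcript table that carry at least 1 RefSeq noncoding transcript (accession prefix XR) and no RefSeq coding transcript. This rule found 5710 of the 62609 loci in the table, against 46353 loci with a coding transcript. The value of a locus is its FPKM (fragments mapped, scaled to transcript length and to library size), summed over all its transcripts, and 1266 of the 5710 loci reached an FPKM of 1 in 3 or more of the 9 libraries. These 1266 were tested among 32763 loci in all, while 2549 of the 5710 were listed at 0 in every library. The label needs a qualification, since the RefSeq gene types behind the rule are of several kinds. Of the 1266 loci, 580 were long noncoding RNAs (lncRNA), 25 were lncRNAs whose span holds an annotated miRNA gene, 16 were lncRNAs joined in the assembly with a small RNA gene, and 32 were of the type misc_RNA. The remainder were 149 transcribed pseudogenes, 13 small nuclear RNAs (snRNA), 171 small nucleolar RNAs (snoRNA) and 280 ribosomal RNA (rRNA) loci.

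Plants of the cultivar Williams 82 were grown for 4 weeks in half-strength Hoagland solution, all with sufficient nutrients, and root sections of 2 cm with the tip were harvested. The t0 group (3 plants) received no sucrose, and the t20 and t40 groups (3 plants each) were sampled 20 and 40 min after sucrose was added to the medium to 10 mM. The question put to the noncoding loci was which of them differed between these times. The columns of the table number the libraries, with t0 as libraries 1 to 3, t20 as libraries 4 to 6 and t40 as libraries 7 to 9.

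Noncoding RNAs act without being translated. In plants, lncRNAs are transcribed like messenger RNAs and many are spliced and polyadenylated, some lie antisense to coding genes, and some serve as the primary transcripts from which Dicer-like enzymes cut miRNAs. The snRNAs form the core of the spliceosome, and the snoRNAs guide chemical modification of rRNA, which is itself transcribed from long arrays of near-identical copies. The libraries were made with a kit that selects polyadenylated RNA, so snRNAs, snoRNAs and rRNA, which mostly lack a poly(A) tail, were measured only as far as they came through that selection.

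FPKM does not keep sequencing depth, the read numbers listed by the study were not used here, and the summed FPKM of all loci was 638361 to 720621 per library. Library 3, a control, stood apart for the noncoding loci: rRNA took 4.23% of its summed FPKM, against 0.302% to 1.56% in the other 8 libraries. Of the defining root markers sought by symbol only CASP2, a gene of the endodermal Casparian strip, was matched, with 8.46 to 28.7 FPKM, and of 4 leaf markers LHCB1-7 was at most 0.421 FPKM, RBCS1 was at 0.244 to 4.97 FPKM, RBCS2 at 82.5 to 332 FPKM and CAB3 at 16.8 to 335 FPKM. RBCS2 was highest in library 6 and nearly as high in control library 1 (308.8 FPKM), while CAB3 and RBCS1 were highest in library 6.

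Noncoding loci were mostly of low level. The median of the mean FPKM was 2.7 over the 1266 tested loci, against 7.45 over the 29619 coding loci tested. The share of loci that reached the tested set was 18% for lncRNAs, 10.5% for snoRNAs and 10.7% for snRNAs, and it was 80.5% for rRNA loci, 74.1% for transcribed pseudogenes and 73.5% for miRNA hosts. Coding loci passed in 63.9% of cases. The longest transcript of a tested lncRNA locus had a median of 3 exons and 1315 bases, against 5 exons and 1861 bases for coding loci. All but 7 of the 171 snoRNAs and all but 2 of the 13 snRNAs had 1 exon, with median lengths of 92 and 196 bases. Around the expression limit, 92 loci reached FPKM 1 in exactly 3 libraries, with mean levels of 0.494 to 2.53 FPKM, and 87 reached it in exactly 2, with mean levels of 0.402 to 1.69 FPKM. Of these 92, 19 reached it in the 3 t40 libraries alone, 6 in the 3 t0 libraries alone and 1 in the 3 t20 libraries alone. Such loci had to be high at that time to be tested at all, and 10 of the 19 were among the loci called higher at t40. Their difference is given below as a description, without a test. Other loci were under FPKM 1 in every control and passed through libraries of both sucrose times, so their selection also favoured a rise. Of the loci named below, these include LOC100500250, LOC106796952, LOC121173645, LOC121174018, LOC100791461 and LOC113000832. Any p-value given for them carries that limit.

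At 40 min, 74 of the 1266 noncoding loci (5.85%) were higher than at t0 and 101 (7.98%) were lower, by limma with a Benjamini-Hochberg adjusted p under 0.05 over all 32763 loci and a log2 fold change of 1 or more in size. Over all loci tested the same criteria called 10.5% higher and 3.49% lower. Without the loci that passed the expression limit in t40 libraries alone, 64 of 1247 noncoding loci (5.13%) and 10.2% of all loci were called higher. Fold changes here are differences of log2(FPKM + 1), a scale that understates the change of loci with low FPKM. The classes differed. Rises were called in 49 lncRNAs, 4 misc_RNA loci, 6 transcribed pseudogenes, 2 miRNA hosts, 1 joined locus, 7 snRNAs and 5 snoRNAs. Of the 101 falls, 74 were rRNA loci, 17 were lncRNAs and 8 were snoRNAs, with 1 each among the joined and misc_RNA loci. The median log2 fold change was 0.03 for lncRNAs, 0.05 for pseudogenes, 0.03 for snoRNAs, 1.07 for snRNAs and -1.68 for rRNA loci, beside 0.07 for coding loci. At 20 min, 2 noncoding loci were called higher and 1 lower, beside 0.766% and 0.156% of all loci tested.

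**Figure D1:**
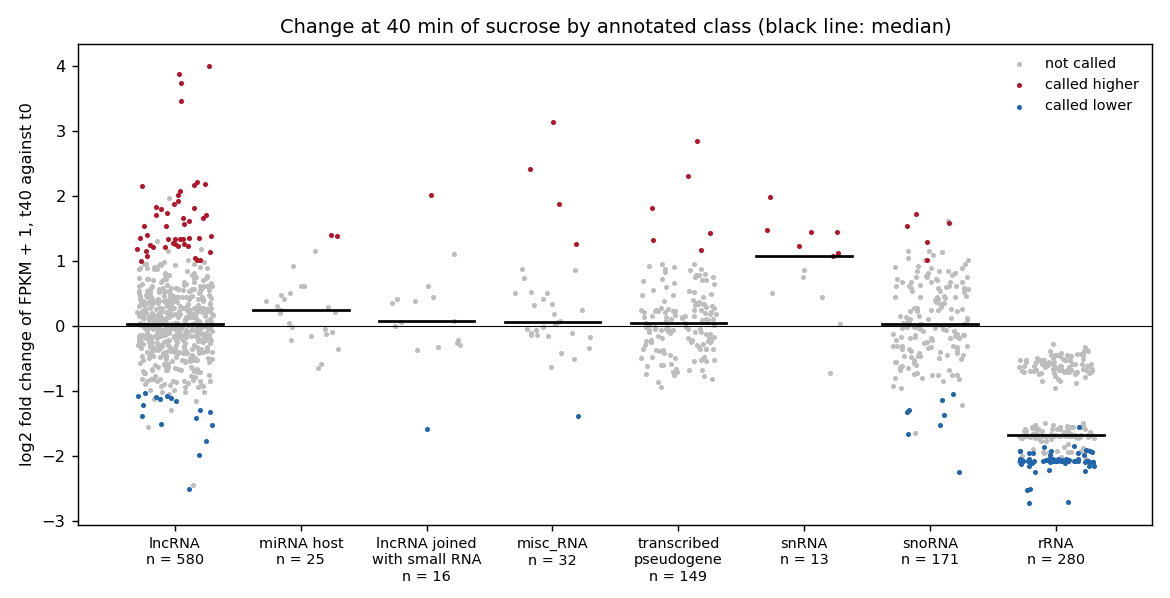
Each point is 1 of the 1266 tested loci, placed by its annotated class and by its log2 fold change of FPKM + 1 at t40 against t0, and the black line is the class median. Red points were called higher (74) and blue points lower (101). The rRNA loci lie below 0 throughout, with a class median of -1.68, and the median of the 13 snRNAs is 1.07, while the other class medians lie between 0.03 and 0.24.

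The largest rise among the lncRNAs was that of LOC106794514, a locus of 2 exons on chromosome 9 (45719551 to 45720312, assembly Glycine_max_v4.0, as all positions given here). Its FPKM was 1.32, 0.228 and 13.3 in the t0 libraries, 20.9, 5.02 and 16.9 at t20 and 43.5, 45.6 and 79.7 at t40. Every t40 value lay above every t0 value, and control library 3 was within the range of the t20 libraries. It rose by 4.00 ± 0.80 (SE) on the log2 scale at t40 (limma adjusted p = 0.00855). Its nearest coding locus is PAP14, a purple acid phosphatase gene of the opposite strand that starts 6276 bases away, with a log2 fold change of 0.10 (adjusted p = 0.769).

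LOC100500250 on chromosome 4 (48724699 to 48725303) was close to 0 without sucrose. It had 0.25, 0 and 0.465 FPKM at t0, 3.63, 0.602 and 3.54 FPKM at t20, and 11.3, 16.8 and 25.5 FPKM at t40. The t40 libraries were above all others, and at t20 library 5 was near the controls. On the log2 scale the rise at t40 was 3.88 ± 0.42 (limma adjusted p = 0.000893). The locus passed the expression limit through sucrose libraries alone, a selection that favoured a rise.

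LOC100802410 on chromosome 12 (543853 to 545217) had 14.1, 2.45 and 4.57 FPKM at t0, 15.9, 4.17 and 5.72 FPKM at t20 and 36.2, 128.2 and 143.6 FPKM at t40. The t0 and t20 values overlapped and the t40 values stood above both. Its log2 fold change at t40 was 3.74 ± 0.67 (limma adjusted p = 0.00516). The annotated transcript held 17.5% of the summed FPKM, an isoform assembled by StringTie held the rest, and with the annotated transcript alone the log2 fold change was 1.32 and no longer called. The coding locus 2049 bases downstream on the same strand, LOC100814345, rose as well, from 0.955, 0.64 and 0.924 FPKM at t0 to 8.07, 5.6 and 8.21 FPKM at t40 (log2 fold change 2.16, limma adjusted p = 0.00905).

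LOC106796952 on chromosome 2 (48947457 to 48950133) overlaps the coding locus LOC100797567 on the opposite strand. The lncRNA was at 0.0819, 0.0794 and 0.013 FPKM at t0, at 1.98, 0.475 and 2.83 FPKM at t20 and at 5.83, 11.2 and 17.9 FPKM at t40. Its log2 fold change at t40 was 3.46 ± 0.40 (limma adjusted p = 0.00101), in a locus that passed the expression limit through sucrose libraries alone. LOC100797567 was between 0.659 and 1.89 FPKM in all libraries, with a log2 fold change of -0.30 (adjusted p = 0.294). The kit keeps strand, but the sources used here do not state whether the aligner and assembler were set to use it, so reads of overlapping partners may not have been told apart.

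**Figure D2:**
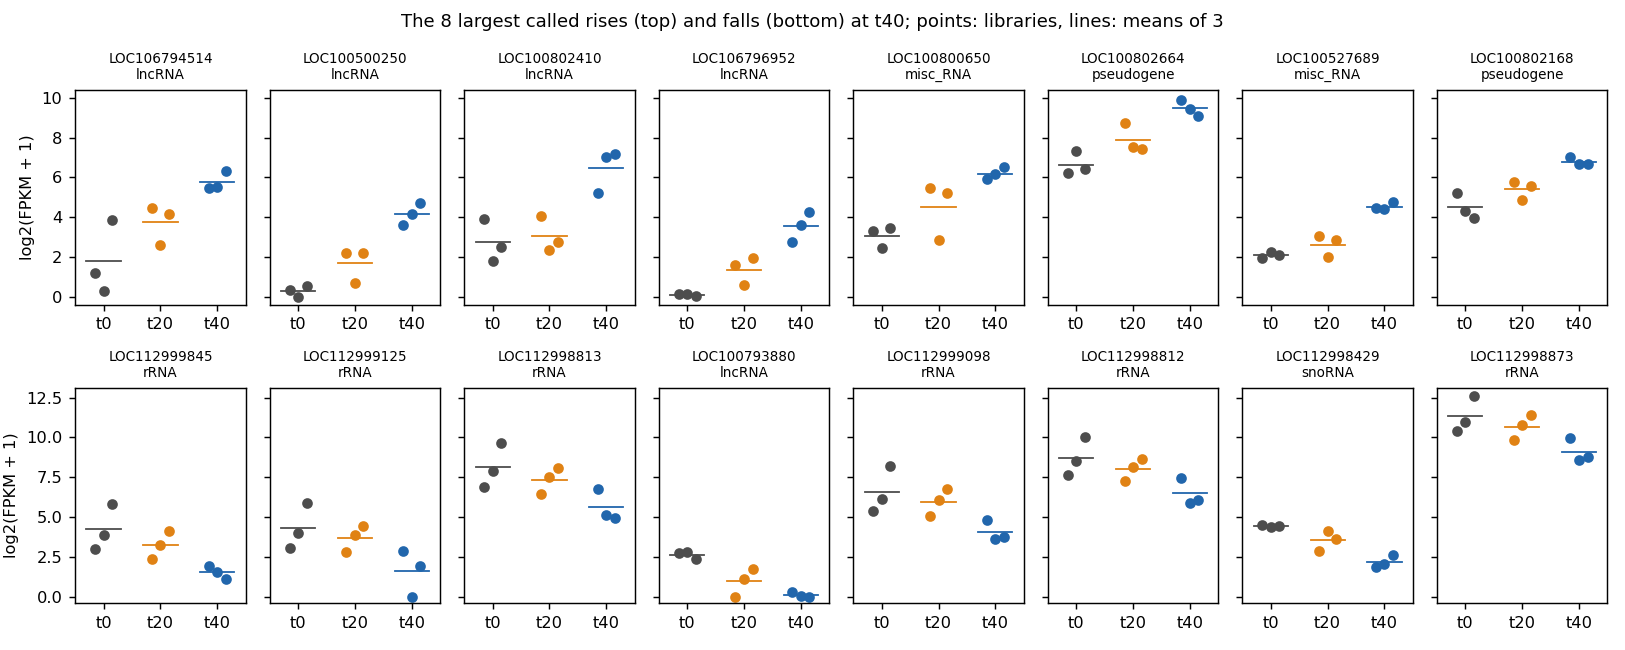
The 8 largest called rises (top) and the 8 largest called falls (bottom) at t40 among the noncoding loci, each with log2(FPKM + 1) on the vertical axis, the 3 libraries of each time as points and their mean as a line. In the top row all t40 points lie above all t0 points. In the 6 rRNA panels of the bottom row the highest t0 point is library 3.

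Over the long classes (lncRNA, miRNA host, joined, misc_RNA and pseudogene loci), 62 rises and 19 falls were called, and 41 of the 62 and 6 of the 19 kept their call in all 9 fits that left out 1 library. Of the lncRNAs, 8.45% were called higher and 2.93% lower, beside 10.5% and 3.49% of all loci. Among these classes only misc_RNA (4 of 32) exceeded 10.5% higher, and only joined loci (1 of 16) exceeded 3.49% lower. Rises of 4 lncRNAs, 1 joined and 1 misc_RNA locus passed the expression limit through t40 libraries alone. For 1 falling misc_RNA locus it was t0 libraries alone. The counts and medians here include these loci. Of the 62 rising loci, 34 had a mean under 5 FPKM. Low levels were common to these classes, whose tested loci had median means of 2.17 FPKM (lncRNA) to 4.25 FPKM (joined). In 25 of the 62, under 50% of the FPKM came from annotated transcripts, counted here as those with the prefix XR. The rest came from other transcripts of the locus, such as isoforms assembled by StringTie or, in miRNA hosts, entries of the miRNA gene. Their median log2 fold change was 1.48 at t40, where the call selects for size, and 0.70 at t20. The 19 falling loci had medians of -1.32 and -0.59. Both comparisons use the same 3 control libraries.

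Some of the changed lncRNAs were abundant. LOC100804125 (chromosome 10, 43932606 to 43933330), the lncRNA with the highest mean FPKM, had 308.4, 410.7 and 116.3 FPKM at t0, 534.9, 440.1 and 219.8 FPKM at t20 and 1238, 772.2 and 753.4 FPKM at t40. The t40 libraries lay above all others, and control library 3 was the lowest of the 9. At t40 the rise was 1.87 ± 0.48 on the log2 scale (limma adjusted p = 0.023), and the call was lost without library 3 (1.33, adjusted p = 0.0626), library 7 (1.63, adjusted p = 0.085) or library 8 (1.97, adjusted p = 0.0582). Its nearest coding locus, CP3, lies 1637 bases away on the same strand and had a log2 fold change of -0.04. LOC100814947 (chromosome 8, 13800356 to 13802329) went the other way, from 543.9, 516.8 and 468.3 FPKM at t0 over 204.9, 478.2 and 364.2 FPKM at t20 to 186.9, 240.1 and 279.1 FPKM at t40. Its groups at t0 and t40 did not overlap and the log2 fold change was -1.13 ± 0.31 (limma adjusted p = 0.0271). That call was lost in 5 of the 9 fits without 1 library, with adjusted p of 0.0588 without library 1, 0.0698 without library 2, 0.0578 without library 3, 0.104 without library 7 (log2 fold change -0.97) and 0.0784 without library 8.

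The largest fall outside the rRNA class was that of LOC100793880, a lncRNA of 6 exons on chromosome 10 (35449844 to 35461118). It had 5.57, 5.9 and 4.05 FPKM at t0, 0, 1.18 and 2.34 FPKM at t20 and 0.245, 0.00502 and 0 FPKM at t40. The values at both sucrose times lay below every control, with a log2 fold change of -2.51 ± 0.37 at t40 (limma adjusted p = 0.00232) and -1.66 ± 0.37 at t20 (adjusted p = 0.0655). Its nearest coding locus, 18869 bases away, was too low to be tested.

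Among the misc_RNA loci, LOC100800650 on chromosome 6 (47505995 to 47508721) rose from 8.94, 4.52 and 9.88 FPKM at t0 to 59.7, 70.9 and 89.8 FPKM at t40. Its t20 libraries were split, with 43.8 and 36.1 FPKM in libraries 4 and 6 and 6.18 FPKM in library 5. At t40 the log2 fold change was 3.13 ± 0.59 (limma adjusted p = 0.00689). LOC100527689 on chromosome 12 (39915540 to 39917498), annotated with 1 exon, had 2.91, 3.71 and 3.35 FPKM at t0, 7.19, 3 and 6.11 FPKM at t20 and 20.7, 20 and 26.1 FPKM at t40 (log2 fold change 2.42 ± 0.26, limma adjusted p = 0.000893). The t0 and t40 groups of both loci were apart. Without these loci the summed FPKM of misc_RNA was 132.6, 133.8 and 110.2 at t0 and 128.8, 132.1 and 131.4 at t40.

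Transcribed pseudogenes resemble coding genes but lack an intact reading frame in the annotation, and 6 of 149 rose while 0 fell, 4.03% beside 10.5% of all loci called higher (at an unadjusted p under 0.05 the counts were also 6 and 0). The strongest, LOC100802664 on chromosome 8 (46762783 to 46773632), was one of the 6 most abundant noncoding loci. It had 72.8, 157.8 and 84.4 FPKM at t0, 422.4, 187.7 and 170.8 FPKM at t20 and 971.5, 691.3 and 543.9 FPKM at t40, and every sucrose library was above every control. It rose by 2.84 ± 0.41 on the log2 scale at t40 (limma adjusted p = 0.00208), and its value at t20 was 1.26 ± 0.41 (adjusted p = 0.16). Its coding neighbour LOC100805865, 1921 bases away on the same strand, rose by 1.43 on the log2 scale (adjusted p = 0.0143). All pseudogenes together had 931.1 to 1176 FPKM in the controls, 1175 to 1451 FPKM after 20 min and 1649 to 2103 FPKM after 40 min. LOC100802664 and LOC100802168 carried this difference, since without them the sum was 1013, 998.9 and 832.4 FPKM at t0 and 1001, 1016 and 1004 FPKM at t40, values that overlap. LOC100802168 on chromosome 9 (40558762 to 40563261) had 35.9, 19 and 14.4 FPKM at t0 and 130.4, 101.2 and 101.7 FPKM at t40 (log2 fold change 2.31 ± 0.34, limma adjusted p = 0.00225). Only 10.1% of that level came from annotated transcripts, and these alone gave -0.90, so the rise was measured in an assembled isoform of the locus. Pseudogenes share sequence with their parent genes, and the assignment of reads between them could not be checked.

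The 25 miRNA hosts are loci whose span holds an annotated miRNA gene on the same strand. Their FPKM is summed over every transcript of the locus, entries of the miRNA gene included, and is no measure of the mature miRNA. Transcripts with the prefix XR held from 2.2% of it (host of MIR398C) to 99.2% (host of MIR4348B). How much came from entries of the miRNA gene itself was not examined. Mean levels ran from 0.824 FPKM for the host of MIR403B, whose miRNA targets AGO2 in Arabidopsis, to 19.9 FPKM for that of MIR482B, a family that targets disease resistance genes of the NB-LRR type. Among the hosts, 2 rose at t40, 8% of the class beside 10.5% of all loci, and 0 were called lower. At an unadjusted p under 0.05 the counts were 3 and 0.

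The host of MIR166G, LOC121172989 (chromosome 10, 2899744 to 2902677), had 4.09, 2.7 and 1.61 FPKM at t0, 4.58, 2.82 and 2.12 FPKM at t20 and 8.46, 11.5 and 6.57 FPKM at t40. The t40 libraries lay above all others. Its log2 fold change was 1.40 ± 0.31 (limma adjusted p = 0.0123), and it was 1.21 without library 8 (adjusted p = 0.0528). The miR166 family acts on transcription factors of the HD-ZIP III group, which pattern root and shoot tissues in Arabidopsis. The other 4 MIR166 hosts had log2 fold changes of 0.31 (MIR166A), 0.20 (MIR166H), 0.47 (MIR166N) and -0.59 (MIR166O), with adjusted p of 0.454, 0.622, 0.206 and 0.229.

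The host of MIR156K, LOC113001936 (chromosome 6, 4677031 to 4683535), had 4.64, 1.91 and 0.952 FPKM at t0, 6.42, 4.41 and 7.33 FPKM at t20 and 5.8, 7.27 and 9.37 FPKM at t40. The t20 and t40 values overlapped, and the t0 values lay below all t40 values. Its log2 fold change was 1.39 ± 0.36 at t40 (limma adjusted p = 0.0219) and 1.13 at t20 (adjusted p = 0.153). The t40 call was lost without library 2 (1.33, adjusted p = 0.0614), 3 (1.04, adjusted p = 0.0621), 8 (1.40, adjusted p = 0.0662) or 9 (1.24, adjusted p = 0.068). With transcripts of the prefix XR alone, 13% of the level, the log2 fold change was 0.73 and not called. That share leaves out any entry of the miRNA gene under another prefix. The miR156 family acts on SPL transcription factors, which control phase change in plants. The host of MIR156A had a log2 fold change of -0.04 (adjusted p = 0.949).

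Hosts of other families did not pass. LOC100800375, the host of MIR162C, whose family targets DCL1 in Arabidopsis, had 23.6, 24.3 and 4.27 FPKM at t0, 9.75, 6.72 and 6.79 FPKM at t20 and 13.6, 13.3 and 9.13 FPKM at t40. Libraries 1 and 2 were the highest of the 9 and library 3 the lowest, and the log2 fold change was -0.21 ± 0.52 (limma adjusted p = 0.788). LOC121174288, the host of MIR482B, had 29.7, 31 and 5.45 FPKM at t0 and 23.7, 29.4 and 22.9 FPKM at t40, and library 3 was again the lowest control. Library 3 was the lowest of the 3 controls for 21 of the 25 hosts and the highest for 0, and the part of this in the values was not tested. The summed FPKM of all hosts was 48.5 in library 3, 142 and 143.9 in the other controls, 68 to 89.8 at t20 and 120.8 to 136.3 at t40. The host of MIR4415A, LOC121174051, had the next largest value after the called pair, with 2.95, 6.76 and 2.07 FPKM at t0 and 13.3, 7.59 and 7.51 FPKM at t40 (log2 fold change 1.16 ± 0.48, limma adjusted p = 0.106).

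**Figure D3:**
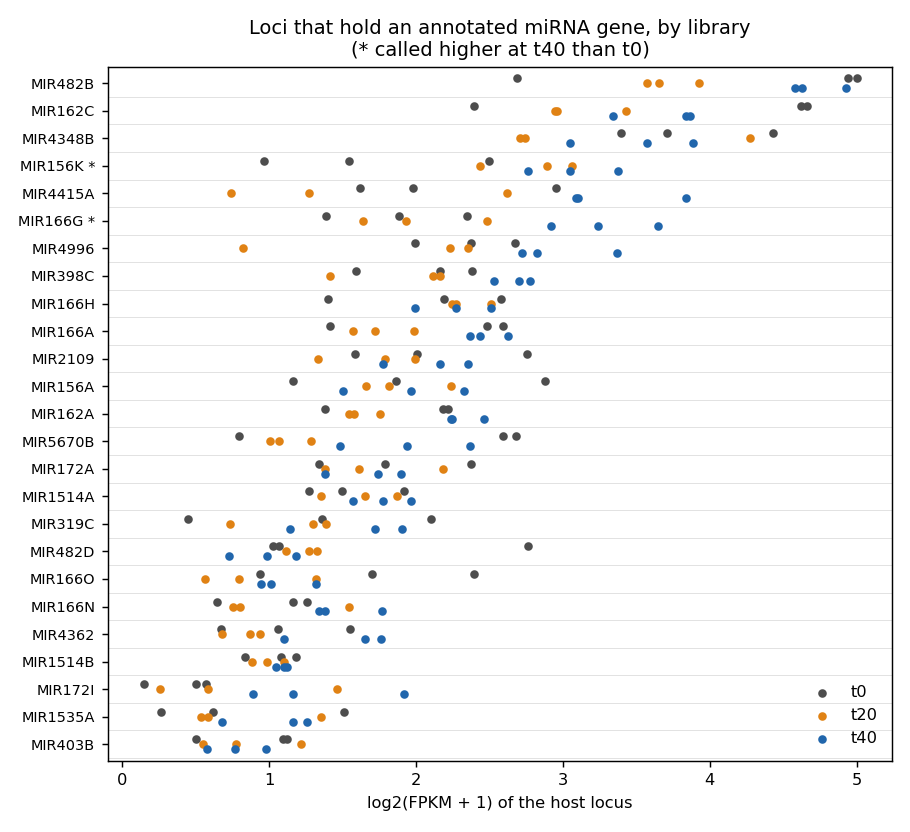
The 25 loci that hold an annotated miRNA gene, ordered by mean level, with log2(FPKM + 1) of the host locus on the horizontal axis and 1 point for each of the 9 libraries, coloured by time. An asterisk marks the hosts called higher at t40, MIR156K and MIR166G. In most rows the points of the 3 times overlap, and 1 control (library 3) lies to the left of the other 2 in 21 rows.

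Genes that make or use small RNAs, a list set by symbol, were examined beside the hosts. The 9 coding genes found were AGO5, DCL2A, DCL2B, DCL3A, DRB2A, DRB2B, HEN1A, HEN1B and RDR3, and 1 of 9 was called higher at t40, close to the 10.5% of all loci, while 0 were called lower (at an unadjusted p under 0.05 with the same fold limit, also 1 and 0). AGO5, an argonaute that binds small RNAs, had 16.3, 24.9 and 16 FPKM at t0, 40, 33.8 and 24.7 FPKM at t20 and 67.4, 64.7 and 60.8 FPKM at t40, a log2 fold change of 1.73 (limma adjusted p = 0.00152). The other 8 had log2 fold changes of -0.02 to 0.59 at t40. ENOD40A, an early nodulin RNA that the annotation counts as coding and the rule therefore leaves out, had a log2 fold change of -0.60 (adjusted p = 0.038), under the fold limit.

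The lncRNAs joined with a small RNA gene cannot be separated from it in a summed value. LOC106795004 (chromosome 10, 46213472 to 46214906) shares its identifier with LOC112998296. It had 0.985, 0.428 and 0.856 FPKM at t0, 0.542, 0.73 and 0.466 FPKM at t20 and 6.12, 4.04 and 8.6 FPKM at t40, so the t20 libraries were at the level of the controls and the t40 libraries were above both. It passed the expression limit through the t40 libraries alone, and its log2 difference from t0 was 2.01. LOC106799481 (chromosome 7, 37948348 to 37952320) fell from 18.1, 17.1 and 18.1 FPKM at t0 to 4.75, 4.61 and 6.46 FPKM at t40 (log2 fold change -1.59 ± 0.41, limma adjusted p = 0.0226), and its t20 libraries were at 3.44, 16.1 and 12 FPKM. This call was lost without library 2 (adjusted p = 0.0536), 3 (0.0634), 7 (0.0725) or 8 (0.0766), with log2 fold changes of -1.62, -1.58, -1.54 and -1.52.

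Of the 13 snRNAs, 7 were called higher at t40 and 0 lower (53.8% beside 10.5% of all loci). Of these 7, LOC112998247 and LOC113002488 were tested only because all 3 t40 libraries reached FPKM 1, and without such loci 5 of 11 were called (45.5% beside 10.2%). At an unadjusted p under 0.05 the counts were also 7 and 0. Their summed FPKM was 35.8, 35.6 and 24.6 at t0, 30.7, 71.6 and 35.5 at t20 and 55.6, 77.6 and 71.1 at t40. The t0 and t40 sums did not overlap, and library 5 was at the t40 level. LOC112998204 (chromosome 10, 46242155 to 46242350) had 2.13, 3.29 and 1.73 FPKM at t0, 1.58, 1.31 and 1.04 FPKM at t20 and 5.59, 9.09 and 10.1 FPKM at t40 (log2 fold change 1.44 ± 0.25, limma adjusted p = 0.00434). LOC113000057 (chromosome 17, 2994587 to 2994782) had 1.43, 0.76 and 0.805 FPKM at t0, 1.07, 1.03 and 2.56 FPKM at t20 and 4.02, 4.54 and 4.5 FPKM at t40 (log2 fold change 1.44 ± 0.24, limma adjusted p = 0.00402). Both t40 groups lay above all other libraries. LOC113000832, of 117 bases, was listed at 0 in all controls and at 0.719, 4.9 and 4.99 FPKM at t40, so no fold is given. It passed the expression limit through sucrose libraries alone, so its call is a description, and it is among the 5 of 11. The call was lost without library 3, 8 or 9.

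Of the 6 snRNAs that are 195 or 196 bases long, 5 were called higher, and they may be copies of 1 family that share reads. LOC113001336, of 161 bases, went down without passing the test, with 2.87, 4.01 and 3.94 FPKM at t0 and 1.32, 2.51 and 1.65 FPKM at t40 (log2 fold change -0.72, limma adjusted p = 0.0674). It overlaps the coding locus LOC100499852 on the opposite strand, which had 512, 567 and 502.7 FPKM at t0 and 227.9, 263.2 and 304.8 FPKM at t40 and was just under the fold limit (limma adjusted p = 0.0246). All but 2 of the snRNAs tested are under 200 bases, a length at which FPKM depends on how fragment length is modelled. The count of 7 rises became 4 without library 3, 4 without library 8 and 4 after quantile normalization.

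Among the 171 snoRNAs tested, 5 were called higher and 8 lower at t40 (2.92% and 4.68%, beside 10.5% and 3.49% of all loci). Of the 5, LOC112998473 and LOC113001738 were tested only through their t40 libraries. The direction differed between length classes, which were chosen after the values were seen. Of the 109 snoRNAs under 100 bases, 5 rose and 1 fell, and 70 had a log2 fold change above 0, with a median of 0.24. Of the 30 with 120 to 199 bases, 0 rose and 5 fell, and 5 had a log2 fold change above 0, with a median of -0.52. The direction did not follow length throughout, as the 18 of 100 to 119 bases had a median of -0.13 with 7 above 0, and the 14 of 200 bases or more had a median of -0.08 with 7 above 0. Box C/D snoRNAs, which guide methylation, are usually the shorter kind and box H/ACA snoRNAs, which guide pseudouridylation, the longer kind, but the annotation used here names neither. Library 3 was the lowest control for 135 of the 171.

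LOC112998473 and LOC112998474, of 77 and 83 bases, lie on chromosome 11 within the span of the coding locus LOC100787561 on its strand. Both passed the expression limit through the t40 libraries alone, as did LOC113001738, so their values are a description. LOC112998473 had 0.208, 0.0125 and 0.372 FPKM at t0, 0.159, 0.158 and 0.181 FPKM at t20 and 3.39, 1.89 and 2.62 FPKM at t40 (log2 difference 1.59). LOC112998474 had 0.256, 0.839 and 0.35 FPKM at t0 and 1.87, 2.08 and 1.24 FPKM at t40, a log2 difference of 0.89. The coding locus around them was at 759.4, 836.7 and 773.9 FPKM at t0 and at 382, 378.6 and 480 FPKM at t40 (log2 fold change -0.94, limma adjusted p = 0.0398).

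A similar pair of values was found on chromosome 5, where the snoRNA LOC113001738 lies within LOC100499946 on its strand. The snoRNA went from 0.525, 0.508 and 0.394 FPKM at t0 to 2.22, 2.45 and 1.4 FPKM at t40 (log2 difference 1.02). The coding locus went from 341.6, 363.3 and 291.1 FPKM to 122.5, 133.4 and 182.6 FPKM, a called fall (-1.19, limma adjusted p = 0.0377). Of the 171 snoRNAs tested, 40 overlapped a coding locus on the same strand. Only those named here are described with that locus, so no pattern is drawn from them.

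On chromosome 19, LOC113000588 and LOC113000590, each of 79 bases, rose by 1.54 ± 0.31 and 1.72 ± 0.25 on the log2 scale (limma adjusted p = 0.009 and 0.00208). LOC113000590 had 1.32, 1.13 and 0.568 FPKM at t0, 2.27, 2.09 and 0.962 FPKM at t20 and 5.72, 6.57 and 4.5 FPKM at t40. The last riser, LOC113000953, of 77 bases, had 1.77, 1.75 and 0.472 FPKM at t0 and 3.36, 4.82 and 5.48 FPKM at t40 (1.29 ± 0.30, adjusted p = 0.0163), and its call was lost without library 3 (0.99), 8 (1.25) or 9 (1.17).

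The deepest snoRNA fall was that of LOC112998429, of 154 bases, on chromosome 11 (36269363 to 36269516). It had 21.4, 19.4 and 20.4 FPKM at t0, 6.13, 16.6 and 11.5 FPKM at t20 and 2.69, 3.07 and 5.17 FPKM at t40, with the controls above every sucrose library and a log2 fold change of -2.24 ± 0.31 at t40 (limma adjusted p = 0.00191). LOC113001804, of 124 bases, had 21.2, 29.3 and 26.4 FPKM at t0, 5.59, 21.6 and 22 FPKM at t20 and 7.75, 5.89 and 8.68 FPKM at t40 (log2 fold change -1.66 ± 0.42, limma adjusted p = 0.0218). Its call was lost without library 2 (-1.56, adjusted p = 0.0629), 3 (-1.63, adjusted p = 0.0628), 7 (-1.69, adjusted p = 0.0618) or 8 (-1.52, adjusted p = 0.0791). The other 6 fell by 1.05 to 1.53 on the log2 scale, and 1 of them, LOC112999661, was tested only through its t0 libraries. Calls were lost for LOC112998625 without library 3 (-0.92), 7 (-1.29) or 9 (-1.12), for LOC113002213 without library 2 (-1.18), 3 (-1.38), 7 (-1.18) or 8 (-1.29), and for LOC113001560 without library 1 (-0.96), 2 (-0.87), 7 (-1.07), 8 (-1.04) or 9 (-1.02). For LOC112999834, annotated transcripts were 22.3% of the level and alone gave 0.47, and its call was lost without library 3 (-0.93) or 7 (adjusted p = 0.0628).

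The rRNA loci gave most of the falls and the least stable ones. A locus is mostly 1 copy of the array, but 16 of the 280 tested join more than 1 annotated gene. Of the 280, 279 are placed on chromosome 13 or its unplaced scaffolds and 1, LOC112999845, on chromosome 16. All 280 had a log2 fold change below 0 at t40, and 74 were called lower (26.4% beside 3.49% of all loci). Summed over all rRNA loci, FPKM was 5234, 8804 and 30450 in libraries 1 to 3, 4244, 7395 and 10755 at t20 and 5056, 1926 and 2163 at t40. Library 3 held 4.34 times the mean of the other controls and was the highest control for all 280 loci, and t40 library 7 was close to control library 1. Without library 3 the mean t40 sum was 43.4% of the control mean, against 20.6% with it, the median log2 fold change was -1.01, and 1 locus was called. Leaving out library 8 or 9 left 0 calls, and leaving out library 1 gave 202. Copies of the array are near-identical and share reads, so they are not independent measurements, and the part that the poly(A) selection had in these values was not tested.

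The fall differed with the length of the locus, and length differs between the rRNA species. The limits were chosen after the values were seen. The 93 loci under 1000 bases, with a median of 156 bases, had a median log2 fold change of -0.62, and 0 were called. The 103 loci of 1000 to 2499 bases (median 1808) had a median of -1.68 and 7 calls, and the 84 loci of 2500 bases or more (median 3394) had a median of -2.07 and 67 calls. The short loci were also lower in FPKM, with a median of 2.36 beside 26 and 29.3. The rRNA locus with the highest level, named here by LOC112998873, joins 6 annotated rRNA genes on chromosome 13 (3277348 to 3294080) into 1 sum, with 9.91% of its FPKM in annotated transcripts. It had 1361, 2009 and 6231 FPKM at t0, 896.1, 1734 and 2750 FPKM at t20 and 993.2, 378.2 and 437.1 FPKM at t40. Its groups at t0 and t40 did not overlap, with a log2 fold change of -2.23 ± 0.61 (limma adjusted p = 0.0285). Without library 3 it was -1.59 (adjusted p = 0.0858), and the call was also lost without library 2 (-2.41, adjusted p = 0.0527), 8 (-1.96, adjusted p = 0.103) or 9 (-2.07, adjusted p = 0.08).

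LOC112999845, the copy on chromosome 16 (33840687 to 33844051), had the largest fall of all noncoding loci, from 6.94, 13.7 and 56.5 FPKM at t0 over 4.2, 8.48 and 16 FPKM at t20 to 2.78, 1.95 and 1.12 FPKM at t40. Here too library 3 was the highest control. On the log2 scale the value was -2.72 ± 0.65 (limma adjusted p = 0.0176), and it was -2.74 without library 8 (adjusted p = 0.0542) and -2.50 without library 9 (adjusted p = 0.0553).

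**Figure D4:**
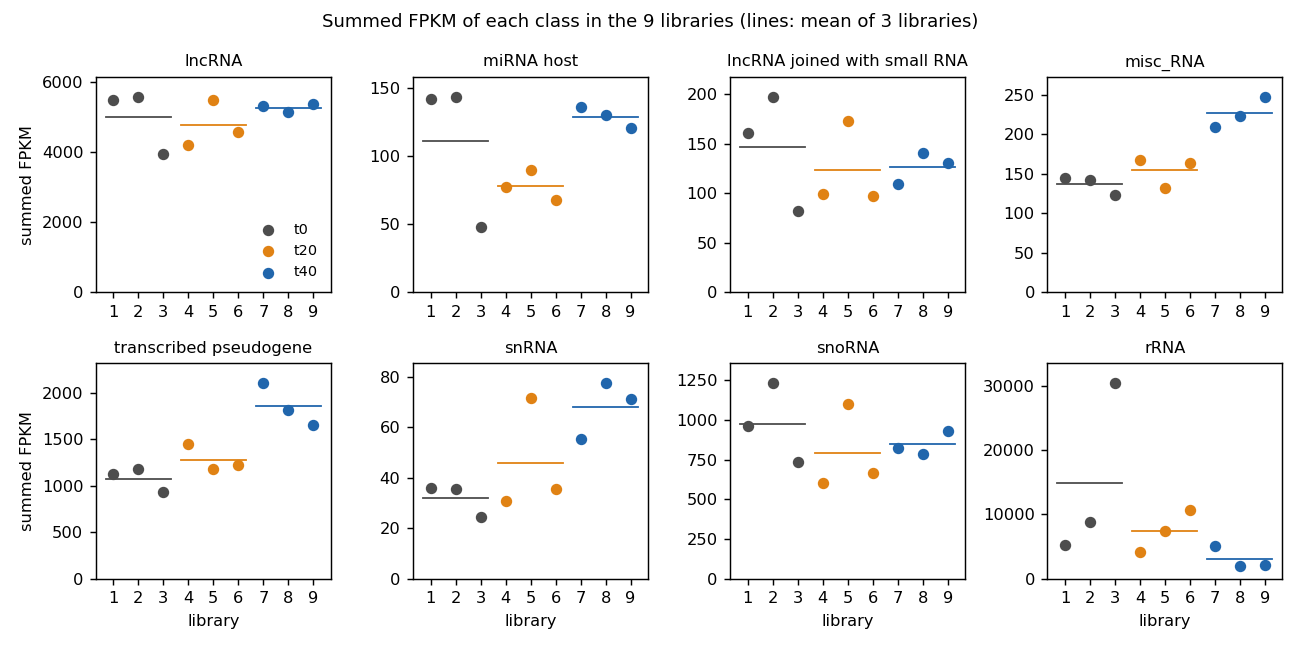
Summed FPKM (vertical axis, linear from 0, 1 scale per panel) of each noncoding class in libraries 1 to 9 (horizontal axis), coloured by time, with the mean of each 3 libraries as a line. The misc_RNA and pseudogene sums are highest in the 3 t40 libraries, through LOC100800650 and LOC100527689 in the one and LOC100802664 and LOC100802168 in the other, and the snRNA sums exceed all controls there. Control library 3 is the lowest control in every panel but that of rRNA, where it holds 30450 FPKM against 1926 to 10755 in the others.

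At 20 min few noncoding loci passed. The 3 calls were 2 rises and 1 fall, but LOC121173823 was tested only through its t20 libraries and LOC100778520 only through its t0 libraries, so that LOC100784859 alone was called without such selection. At an unadjusted p under 0.05 with the same fold limit there were 29 rises and 14 falls, beside 5.34% and 1.27% of all loci tested. LOC100784859 (chromosome 2, 1510185 to 1514597), a lncRNA of 11 exons, had 1.03, 1.08 and 0.893 FPKM at t0, 7.14, 2.98 and 5.93 FPKM at t20 and 5.92, 4.4 and 5.71 FPKM at t40. Both sucrose times lay above the controls and overlapped each other, with a log2 fold change of 1.60 ± 0.26 at t20 (limma adjusted p = 0.0332) and 1.66 ± 0.26 at t40 (adjusted p = 0.00281). Its nearest coding locus, LOC100527032, 5440 bases away on the opposite strand, was also called higher at both times. LOC100527032 had 20.3, 19.4 and 58.2 FPKM at t0, 405, 130 and 178.2 FPKM at t20 and 219.4, 138 and 248.3 FPKM at t40. The log2 fold change of this neighbour was 2.84 at t20 (limma adjusted p = 0.0395) and 2.74 at t40 (adjusted p = 0.00558).

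LOC121173823 (chromosome 17, 7511025 to 7512585) was highest at 20 min, with 0.119, 0.149 and 0.262 FPKM at t0, 1.91, 1.19 and 1.82 FPKM at t20 and 0.841, 0.164 and 0.58 FPKM at t40. Its log2 difference from t0 was 1.16 at t20 and 0.35 at t40. None of this FPKM came from the annotated transcript. The fall at t20 was that of LOC100778520 (chromosome 5, 811749 to 812875), which had 1.69, 1.27 and 1.93 FPKM at t0, 0, 0.494 and 0.319 FPKM at t20 (log2 difference -1.06) and was listed at 0 in all t40 libraries. Of these 3 calls each held in 1 of the 9 fits without a library, the one without library 5, and the adjusted p of LOC100784859 reached 0.127 in the others (without library 6). Without library 5, which stood closest to the controls, 25 noncoding loci were called higher and 10 lower at t20. The share of all loci called in that fit was not set beside these counts. They are therefore no result about noncoding loci in particular.

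Between 20 and 40 min, 19 noncoding loci (1.5%) were higher at t40 and 1 (0.079%) was lower, beside 1.3% and 0.058% of all loci tested. The higher ones were 9 lncRNAs, 5 snoRNAs, 3 snRNAs, 1 joined locus and 1 misc_RNA locus. The largest was LOC100802410, with a log2 difference of 3.40 (limma adjusted p = 0.0423). The count of 19 was 1 without library 8 and 0 without library 9. Among the higher loci, LOC106795004, LOC112998247, LOC113002488, LOC112998473, LOC112998474, LOC113001738 and LOC121173834 passed the expression limit through the t40 libraries alone. Their difference is a description without a test. Loci that passed in that way, called or not, numbered 19 of the 1266 noncoding loci and 209 of all 32763. The shares above include them.

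Positions were compared with those of coding loci, with no test. Of the 580 lncRNAs tested, 77 overlapped a coding locus on the opposite strand and 12 on the same strand, and a further 97 lay within 1000 bases of one. Among the 49 lncRNAs called higher, the nearest coding locus could be tested for 42 and was called higher for 12 (28.6%) and lower for 0. Among the lncRNAs not called, the nearest coding locus was higher for 46 of 356 (12.9%) and lower for 6. The nearest coding locus of the 17 falling lncRNAs could be tested for 7, with 1 called in each direction. Over 405 lncRNAs with a tested neighbour, the fold changes at t40 of lncRNA and neighbour had a Pearson correlation of 0.09 and a Spearman correlation of 0.02, as a description over loci that share the 9 libraries. Split by strand and distance into 8 sets, the Pearson correlation ran from -0.24 in the 51 overlapping pairs on opposite strands to 0.43 in the 20 pairs within 1000 bases on the same strand. It was -0.19 in the 9 overlapping pairs on the same strand, -0.06 in the 52 pairs within 1000 bases on opposite strands and 0.05 to 0.21 in the 4 sets farther apart.

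**Figure D5:**
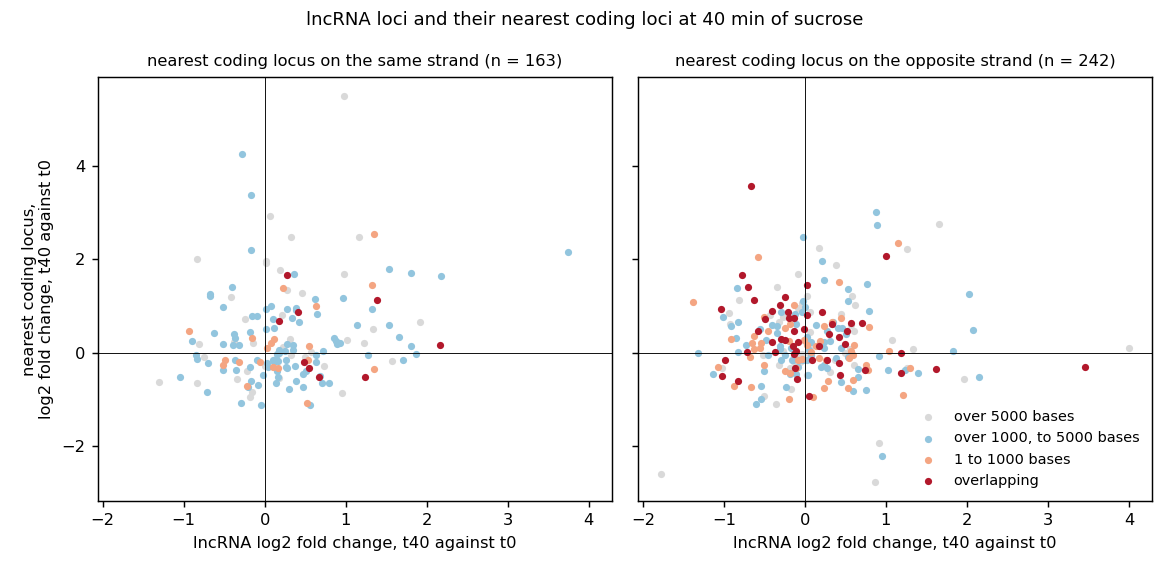
The log2 fold change at t40 against t0 of 405 lncRNAs (horizontal axis) and of the nearest coding locus of each (vertical axis), split by whether the pair lies on the same strand (163) or on opposite strands (242) and coloured by the distance between them. The points spread around 0 in both panels, with Pearson correlations that run, over 8 sets by strand and distance, from 0.43 for pairs within 1000 bases on the same strand to -0.24 for overlapping pairs on opposite strands.

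Several pairs held a coding gene with a known symbol. These were chosen after their values were seen. LOC121173645 (chromosome 2, 957802 to 959533) lies 354 bases downstream of GA2OX1, a gibberellin 2-oxidase that inactivates gibberellins. The lncRNA had 0.627, 0.165 and 0.519 FPKM at t0 and 2.72, 2.86 and 2.33 FPKM at t40 (log2 fold change 1.35 ± 0.21, limma adjusted p = 0.00265). It passed the expression limit through sucrose libraries alone, a selection that favoured a rise. GA2OX1 itself had 1.85, 2.31 and 1.4 FPKM at t0 and 11.4, 16 and 19.7 FPKM at t40 (2.53, adjusted p = 0.00245). Annotated transcripts of the lncRNA alone gave 0.63, not called.

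LOC121174018 (chromosome 1, 46887851 to 46893206) lies 1255 bases downstream of SPX1, a gene of the family that senses phosphate status, on the same strand. It had 0.116, 0.0429 and 0.154 FPKM at t0, 2.76, 0.299 and 0.294 FPKM at t20 and 5.36, 3.57 and 3.28 FPKM at t40 (log2 fold change 2.18 ± 0.37, limma adjusted p = 0.00436). This lncRNA passed the expression limit through sucrose libraries alone. SPX1 had 4.41, 1.89 and 1.31 FPKM at t0, 0.628, 0.616 and 1.78 FPKM at t20 and 5.32, 13.8 and 10.7 FPKM at t40 (1.64, adjusted p = 0.0175). The annotated transcript of LOC121174018 held 1.02% of its level and alone gave 0.00, so the values are those of assembled isoforms.

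LOC106796769 (chromosome 17, 12398500 to 12401959) overlaps BMY2, a beta-amylase gene, on the opposite strand. It fell from 9.85, 14.2 and 14.2 FPKM at t0 to 5.07, 5.76 and 6.13 FPKM at t40 (log2 fold change -1.03 ± 0.22, limma adjusted p = 0.0103). BMY2 had 1.99, 2.05 and 1.23 FPKM at t0 and 5.47, 4.96 and 2.71 FPKM at t40, which did not pass (0.94, adjusted p = 0.116). The lncRNA missed the fold limit without library 2 (-0.95), 3 (-0.95) or 7 (-0.97).

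Some lncRNAs whose nearest coding locus was called were not called themselves, as 514 of the 580 lncRNAs were not. LOC100791461 (chromosome 12, 9516762 to 9526209) has as its nearest coding locus LOC778184, which lies 27362 bases away on the same strand. LOC778184 was listed at 0 in the 3 controls and had 30.2, 38 and 72.3 FPKM at t40. The lncRNA had 0.62, 0.83 and 0.914 FPKM at t0, 0.912, 1.22 and 0.997 FPKM at t20 and 1.82, 2.23 and 3.76 FPKM at t40, and its log2 fold change of 0.98 ± 0.21 (limma adjusted p = 0.0114) was just under the fold limit. This lncRNA, too, passed the expression limit through sucrose libraries alone. LOC106798087 (chromosome 3, 36301320 to 36305435) lies 2140 bases upstream of HSF-06, a heat stress transcription factor, on the opposite strand. It had 0.435, 0.65 and 0.623 FPKM at t0 and 1.46, 2.25 and 2.07 FPKM at t40, a log2 difference of 0.89 in a locus tested only through those libraries, while HSF-06 had 0.763, 0.167 and 0.438 FPKM at t0 and 8.2, 7.52 and 9.97 FPKM at t40 (2.73, adjusted p = 0.00126). NAC171, NAC177, NAC022 and WRKY9, all called higher, were the nearest coding loci of lncRNAs that were not called. These lncRNAs had log2 fold changes of -0.02, 0.46, -0.63 and 0.62. The gap was 4743 bases for NAC171, 5913 bases for NAC177 and 57353 bases for WRKY9, and NAC022 overlaps its lncRNA on the opposite strand.

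The longest loci and those with most exons were not called. LOC102662929 (chromosome 10, 4645039 to 4684398) has the longest transcript, 15960 bases, with 46 assembled or annotated transcripts at the locus, and was between 0.693 and 1.97 FPKM in all libraries. LOC100812350 (chromosome 19), a pseudogene of up to 30 exons, was between 2.79 and 6.43 FPKM with a log2 fold change of 0.48 at t40 (limma adjusted p = 0.152). The steadiest loci of at least 5 FPKM included LOC100818858 (chromosome 17), a pseudogene at 14.6 to 18.9 FPKM, and LOC100305472 (chromosome 2), a lncRNA at 4.67 to 6.26 FPKM. LOC100812781, a misc_RNA locus of 7 exons on chromosome 7, was at 8.85 FPKM in library 3 and at 11.1 to 12.8 FPKM in the other 8 libraries.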

How the data were processed

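Trimming was done by the authors with TRIMMOMATIC 0.32 and alignment with HiSat2, against the RefSeq assembly Glycine_max_v4.0. They assembled transcripts with StringTie and deposited 1 table of 119600 transcripts with FPKM values from Ballgown. Whether strand was used is not given in the sources used here. A further 9 columns of values per library (coverage) were not used. FPKM was summed by gene identifier, and an identifier may join several annotated genes, as for 77 of the 1266 loci tested. Classes and positions came from the RefSeq gene table of the same assembly, in which the names of all 5710 loci were found.

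The 32763 loci that reached FPKM 1 in 3 or more libraries were fitted with limma 3.58.1 in R 4.3.3 (lmFit, eBayes with trend) on log2(FPKM + 1), and the 9 libraries shared 1 model. A call needed a Benjamini-Hochberg adjusted p under 0.05 with a log2 fold change of 1 or more in size. FPKM is not a count, so no count model was used. It does not keep depth, and the read numbers the study lists were not used here. The groups are separate plants, 3 per time. Nearest coding loci had the smallest gap between spans.

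The members, lists and rules were chosen with earlier results of these data known. Named loci are the 8 largest rises and falls at t40 and 5 at t20 among calls without overlap, the 6 most abundant, the 3 longest, the 3 with most exons, the 5 steadiest, known small RNA classes (large classes as counts) and those beside called transcription factors or beside a list of leading genes, whose locus identifiers came from an earlier account of these data and were not matched here. Others were chosen after their values were seen. Alternatives were pseudocount 0.1, other filters, scaling by quantiles or median ratios, fits of the groups compared, no variance trend, other thresholds, subsets of loci and leaving out each library. Scaling to the coding sum, annotated transcripts only and leaving out rRNA were added after seeing the data. Annotated transcripts were counted as those with the prefix XR, so entries of a miRNA gene under another prefix were not among them. Promoter motifs were not analysed here.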

Additional observations from a re-analysis of the deposited data

Results flagged for a closer look

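The t40 and t20 effects share their controls, so a difference between them is the direct comparison of t40 with t20. In that comparison 20 noncoding loci were called. Some of them, named in the next paragraph, passed the expression limit through the t40 libraries alone, and their differences are a description without a test. Among the lncRNAs the log2 differences of t40 over t20 were 3.40 for LOC100802410, 2.48 for LOC100500250, 2.18 for LOC106796952, 1.23 for LOC102667089, 1.14 for LOC102669171, 1.13 for LOC121173834, 1.09 for LOC121173047, 1.07 for LOC102662091 and 1.04 for LOC100814413. The joined locus LOC106795004 had 2.15 and the misc_RNA locus LOC100527689 had 1.91. The snRNAs were LOC112998204 with 1.97, LOC112998247 with 1.28 and LOC113002488 with 1.20. Among the snoRNAs, LOC112998473 had 1.62, LOC113000953 had 1.59, LOC112998474 had 1.32, LOC113001738 had 1.31 and LOC113000590 had 1.27, while LOC113002013 was lower at t40, with -1.08.

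LOC102662091 and LOC102669171 were not called against t0, with log2 fold changes of 0.51 and 0.73 at t40 and of -0.56 and -0.41 at t20. LOC106795004, LOC112998247, LOC113002488, LOC112998473, LOC112998474, LOC113001738 and LOC121173834 passed the expression limit through the t40 libraries alone, so their difference was fixed in part by that limit. Every one of the 20 calls was lost in at least 1 of the 9 fits without a library.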

How the results depend on the processing

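No paired analysis was possible because the columns carry no replicate numbers. Counts of called noncoding loci moved as follows, without the shares of all loci under the same settings beside them. At t20 against t0 the 2 rises became 11 with a pseudocount of 0.1, 29 without adjustment, 1 with quantile or median-ratio scaling, annotated transcripts only or a fold limit of 1.5, and 0 without a filter or with only the groups compared, and 0 to 25 without 1 library. The 1 fall became 14 without adjustment, 0 with a pseudocount of 0.1, no filter, quantile or median-ratio scaling, the groups compared, the limit of 1.5 or lncRNAs only, and 0 to 10 without 1 library. At t40 the 74 rises became 35 at the limit of 1.5 and 49 for lncRNAs only, and 56 to 80 without 1 library. The 101 falls became 20 without a filter, 213 with quantile, 44 with median-ratio and 35 with coding-sum scaling, 55 with annotated transcripts only or the groups compared, 219 without adjustment, 17 for lncRNAs only and 27 without rRNA, and 15 to 231 without 1 library (15 without library 8, 18 without 2, 24 without 3 and 231 without 1). The 49 lncRNA rises became 32 with annotated transcripts only and 24 at the limit of 1.5. The 17 lncRNA falls became 36 with a pseudocount of 0.1, 11 without a filter, 37 with quantile scaling and 5 at the limit of 1.5, and 8 to 21 without 1 library (8 without library 2 or 7). The 74 rRNA falls became 1 without a filter, 157 with quantile, 12 with median-ratio and 13 with coding-sum scaling, 30 with annotated transcripts only, 24 with the groups compared and 187 without adjustment, and 0 to 202 without 1 library. The 7 snRNA rises became 4 with quantile scaling and 1 at the limit of 1.5, and 4 to 7 without 1 library. At t40 against t20 the 19 rises became 2 with a pseudocount of 0.1, 10 without a filter or with the groups compared, 52 without adjustment, 8 at the limit of 1.5 and 9 for lncRNAs only, and 0 to 29 without 1 library. The 1 fall became 2 with the stricter filter, median-ratio or coding-sum scaling or annotated transcripts only, 4 with quantile scaling, 29 without adjustment, 0 with a pseudocount of 0.1, no filter, the limit of 1.5 or lncRNAs only, and 0 to 18 without 1 library. The cause was not tested.

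Quantile scaling moved the median over all loci from 0.06 to -0.11 at t40, and coding-sum scaling to 0.17. With annotated transcripts only, the direction turned for LOC100802168 (-0.90) and LOC112999834 (0.47) at t40, and values of 0.00 remained for LOC121174018 at t40 and LOC121173823 at t20, whose annotated transcripts carried almost none of the signal. Over 95 named loci outside rRNA, 3266 alternative values were classed as the same as the main result, 106 as weaker, 26 as stronger and 4 as reversed. Those classed as the same include loci that were not called in either setting, so they are not a count of calls that were kept. Promoter motifs were not run, and depth, which FPKM does not keep, limits what a low value can show.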
